A study of Danio rerio with 20 samples.

Results

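The comparison is of zebrafish embryos at 14 hours post fertilization (hpf) with embryos at 12 hpf, over early to mid-segmentation. It uses the 8 libraries of these stages out of 20 in the series, 4 at each stage, chosen by the stage in their labels. It asks which transcripts rose and which were cleared in these hours, including genes that crossed from near 0 to a clear level and the reverse. Each library was poly(A)-selected RNA of a pool of about 50 whole embryos taken from a 15 min fertilization window, sequenced on an Illumina HiSeq.

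At each stage there were 2 libraries of each of 2 kinds of pool. MPNP pools were un-genotyped offspring of crosses between mdm2+/- parents, so an embryo could be mdm2-/-, mdm2+/- or mdm2+/+, and Mendelian expectation puts about 25% of them at mdm2-/-. PNP pools were offspring of puma-/-; noxa-/-; p21-/- parents, collected at the same stages. Both kinds, and so all 8 libraries, were homozygous mutant for puma (bbc3), noxa (pmaip1) and p21 (cdkn1a), which encode mediators of cell death and arrest downstream of p53. The series was made to follow the induction of p53 targets in embryos that lack Mdm2, the ubiquitin ligase that restrains p53, and all samples analysed here carried the puma, noxa and p21 mutations. In pools of whole embryos, fewer cells of a type and less RNA per cell cannot be told apart.

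At these stages the zebrafish embryo adds somites, blocks of paraxial mesoderm that become muscle and skeleton, one pair after another from a tailbud of dividing progenitors. The notochord, brain and eye take shape, neural crest and blood precursors are specified, and the yolk is enclosed by a syncytial layer that exports lipoproteins. Transcripts that the mother laid down, and those of the first zygotic genes that pattern the blastula and gastrula, are being lost.

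Values are TPM, a length-scaled share of each library's transcripts that sums to 1000000 in each, so a value rises where others fall. The depth of the libraries cannot be read from TPM and is unknown. Changes are differences of log2(TPM + 1), 14 minus 12 hpf, with their standard error (SE), from a limma fit to the 8 libraries with pool and replicate number as further terms. This scale understates the change of genes at low level. A gene is called where its limma p, after Benjamini-Hochberg adjustment over the whole set of tested genes, is under 0.05, and "rose" and "fell" are used of called genes alone. Library values are given in the order MPNP 1, MPNP 2, PNP 1, PNP 2, and stage means as mean ± SD over 4 libraries (n = 4), 12 hpf first. Whether the libraries of a group stem from separate crosses is not in the labels, and the p-values rest only on the spread between these samples, which may be technical. A dagger (†) marks a gene named after its values were seen. Choosing genes by a large change, a small p or values already seen favours stages that do not overlap. For such genes non-overlap describes the values and is no support beyond the p. A double dagger (‡) marks a gene whose call was lost when the replicate number was left out of the fit. This loss was looked up gene by gene for 357 named genes. It was not looked up for foxd1, klhl41, nexn, txlnb, myl13, apoa4a, sla2b, col4a1, col4a2, col18a1a, col15a1b, gpd1 and ptger4.

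Between 13958 and 14475 genes reached 1 TPM in a 12 hpf library and between 14343 and 14922 in a 14 hpf library. The first principal component (39.8% of variance) separated the stages, the second (32%) the libraries numbered 1 from those numbered 2, and the third (11.8%) the pools. Libraries numbered 2 stood apart in genes of differentiated fast muscle and lens at both stages. The summed level of pvalb1, pvalb2†, ckma†, ckmb†, atp2a1† and myhz1.1† was 1.54 and 2.23 TPM in the 12 hpf libraries numbered 1 and 105 and 125 TPM in those numbered 2. At 14 hpf it was 1.38 and 1.46 TPM against 327 and 135 TPM. The same division was present at the other stages. It was 2.54 and 1.39 against 61.6 and 49.8 TPM at 8 hpf, and 0.69 and 1.71 against 70.8 and 165 TPM at 10 hpf. At 16 hpf it was 6.37 and 6.57 against 62.6 and 87.5 TPM. Crystallin genes followed the same division at 12 and 14 hpf. Together, crygm2d1†, crybb1†, cryba2† (ENSDARG00000041925) and cryba4† were at 0.42 to 0.96 TPM in libraries numbered 1 and 7.34 to 28.2 TPM in those numbered 2. None of these 10 genes was called between the stages, and results for muscle and eye genes are given below within each number as well.

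Of 14540 genes with a mean of at least 1 TPM, 3589 rose (24.7%) and 3027 fell (20.8%), so that 45.5% were called. Most changes were small: 446 genes (3.07%) rose and 196 (1.35%) fell by at least 1 on the log2 scale, and 41 and 13 did so by at least 2. The groups' 4 and 4 libraries did not overlap for 2065 genes that were higher and 1485 that were lower. Each library centred on its median, a shift of 0.07, gave 2859 higher and 4113 lower, so 41% of calls were higher in place of 54.2%. The median change over all genes tested was 0.02.

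**Figure D1:**
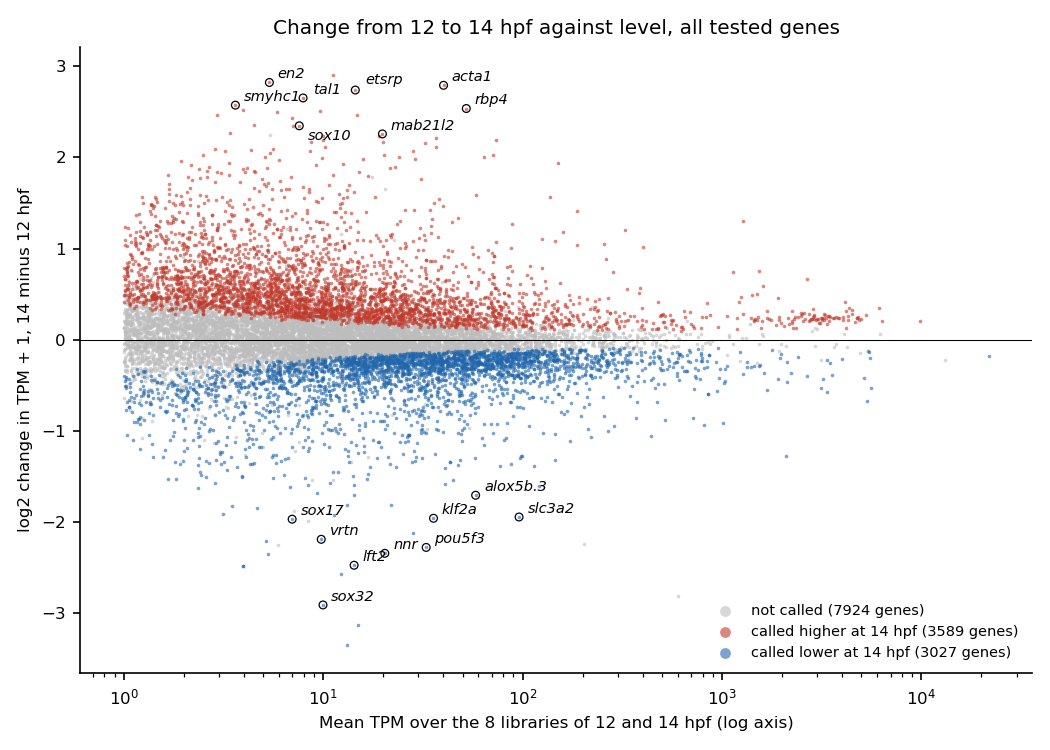
Change from 12 to 14 hpf (log2 scale, vertical axis) against the mean TPM over the 8 libraries (horizontal log axis), with 1 point per gene tested, coloured where called. The 3589 genes that rose and the 3027 that fell lie over the whole range of levels, and the labelled genes are among the 15 largest changes by the rule given in the text for each direction.

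Among genes whose stages did not overlap and whose symbol is not clone-derived, the largest rise was that of en2 (ENSDARG00000038868), a homeobox gene of the midbrain-hindbrain boundary, which was at 0.43, 0.28, 0.45 and 1.03 TPM at 12 hpf and 5.93, 11.7, 9.45 and 13.8 TPM at 14 hpf. All 14 hpf libraries were above all 12 hpf libraries, by 2.82 ± 0.16 on the log2 scale (limma adjusted p = 1.1e-05). Next came a skeletal muscle actin gene, acta1 (ENSDARG00000036371), with a change of 2.79 ± 0.19 (limma adjusted p = 2.5e-05), and etsrp, an ETS factor that starts vessel and myeloid development, with 2.74 ± 0.20 (limma adjusted p = 3.7e-05). The blood stem cell factor gene tal1, the slow myosin gene smyhc1, the retinol carrier gene rbp4, the retinal homeobox gene rx2, the lipoprotein gene apom and gfi1aa, a repressor of red cell precursors, followed at 2.47 to 2.65. Others of the 15 largest rises were those of cpa6 (a carboxypeptidase), actc1, sox10, mef2c (ENSDARG00000029764) and mab21l2, the last at 2.26 ± 0.25.

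Among the genes that fell most were factors of the blastula and gastrula. By the same criteria the largest fall was that of sox32, the Sox factor that specifies zebrafish endoderm, which was at 17.3, 23.1, 15.7 and 17.3 TPM at 12 hpf and 1.82, 1.82, 1.61 and 1.01 TPM at 14 hpf. Its 14 hpf libraries all lay below 2 TPM and its 12 hpf libraries all above 15 TPM, and it fell by 2.91 on the log2 scale (limma adjusted p = 4.6e-06). After it came lft2, a Nodal antagonist (-2.48 ± 0.08), nnr (-2.35 ± 0.10), pou5f3, the zebrafish Pou5f factor of pluripotency (-2.28 ± 0.10), and vrtn (-2.19 ± 0.16). The other 10 of the 15 largest falls, from -2.12 to -1.69, were ca9 (a carbonic anhydrase), sox17 (endoderm), klf2a, slc3a2 (an amino acid transporter subunit), add3 (ENSDARG00000056250), tnfsf10l3, pkdccb, il23r, alox5b.3 and maf (ENSDARG00000076520). The rule that picked these genes required that the libraries did not overlap between the stages.

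By a threshold of below 1 TPM on average at 12 hpf and at least 3 TPM at 14 hpf, 67 called genes were switched on. Among them was rx2, at 0.43, 0.22, 0.43 and 0.76 TPM at 12 hpf and 4.97, 7.05, 8.69 and 9.2 TPM at 14 hpf. Another, smyhc1, was at 0.26, 0.26, 0.28 and 0.44 TPM at 12 hpf and 4.71, 6.87, 7.29 and 8.91 TPM at 14 hpf. For both, every 14 hpf library was above every 12 hpf library. Both were also among the largest rises given above, and the rule that picked those required that the libraries did not overlap. The set held regulators (hmx1, hmx4, myog, foxd1†, wt1†, twist1b†, hoxa11† (ENSDARG00000007009), hoxd11†, hoxd12, gcm2†), muscle structure genes (klhl41† (ENSDARG00000006757), nexn†, txlnb†, myl13†) and secreted products (fga†, fgb, apoa4a†, col4a1†, col5a2). Just inside and just outside the limit at 12 hpf were twist1b†, at 0.998 ± 0.24 and 5.2 ± 2.3 TPM, and lhx9, at 1.07 ± 0.55 and 7.66 ± 2 TPM. Just inside and just outside that at 14 hpf were wt1†, at 0.94 ± 0.32 and 3.04 ± 0.5 TPM, and col9a2†, at 0.59 ± 0.24 and 2.85 ± 0.52 TPM. The reverse threshold gave 21 cleared genes, of which 9 carried a usable symbol: ly6m6, fbxl7, adcy2 (ENSDARG00000058392), ubtd1 (ENSDARG00000007382), arg2, hist1h2a7, sla2b† and 2 IDs for u2, a spliceosomal RNA. The arginase gene arg2, just inside the limit, was at 4.45, 5.38, 2.81 and 2.79 TPM at 12 hpf and 0.99, 1.09, 0.97 and 0.67 TPM at 14 hpf, while ndr2†, just outside it, was at 4.28 ± 0.23 and 1.09 ± 0.36 TPM. The libraries were poly(A)-selected, and how far u2 and hist1h2a7 RNA passes that selection was not tested. The 2 IDs of u2 held the same values as each other in all 20 libraries, so they are not 2 separate results. Both were at 9.27, 3.98, 0 and 18.5 TPM at 12 hpf and were listed at 0 in all 14 hpf libraries. Whether they share reads was not tested, and a library at 12 hpf was also at 0. Their call was lost without the replicate number (limma adjusted p = 0.064). It was also lost without any of 5 of the 8 libraries (limma adjusted p = 0.051 to 0.077 without MPNP 1 at 12 hpf, PNP 2 at 12 hpf, either MPNP library at 14 hpf or PNP 2 at 14 hpf).

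The same genes at the other stages of the series show where these 2 hours sit; the stages are given as levels, since a comparison of neighbouring steps would share libraries. The median level of the 446 genes that rose by at least 1 was 0.289 TPM at 8 hpf, 0.438 at 10, 1.88 at 12, 6.95 at 14 and 13.7 at 16 hpf. Their highest stage mean was at 16 hpf for 423 of them and at 14 hpf for 19. The median of the 196 genes that fell by at least 1 was 32.7, 26.3, 15, 4.5 and 2.38 TPM at the 5 stages, with the highest mean at 8 hpf for 125, at 10 hpf for 59 and at 12 hpf for 12. The 67 genes switched on had medians of 0.105, 0.09, 0.625, 3.68 and 10.2 TPM, and 66 of them were higher at 16 than at 14 hpf. The 21 cleared genes had medians of 8.32, 8.28, 4.04, 0.8 and 0.54 TPM. Of these 21, 6 were higher on average at 16 than at 14 hpf and 13 were lower. Among the 6 was hist1h2a7, at 0.763 TPM at 14 hpf and 1.25 TPM at 16 hpf. Of the 196 genes that fell by at least 1, 27 were higher at 16 than at 14 hpf and 167 were lower.

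**Figure D2:**
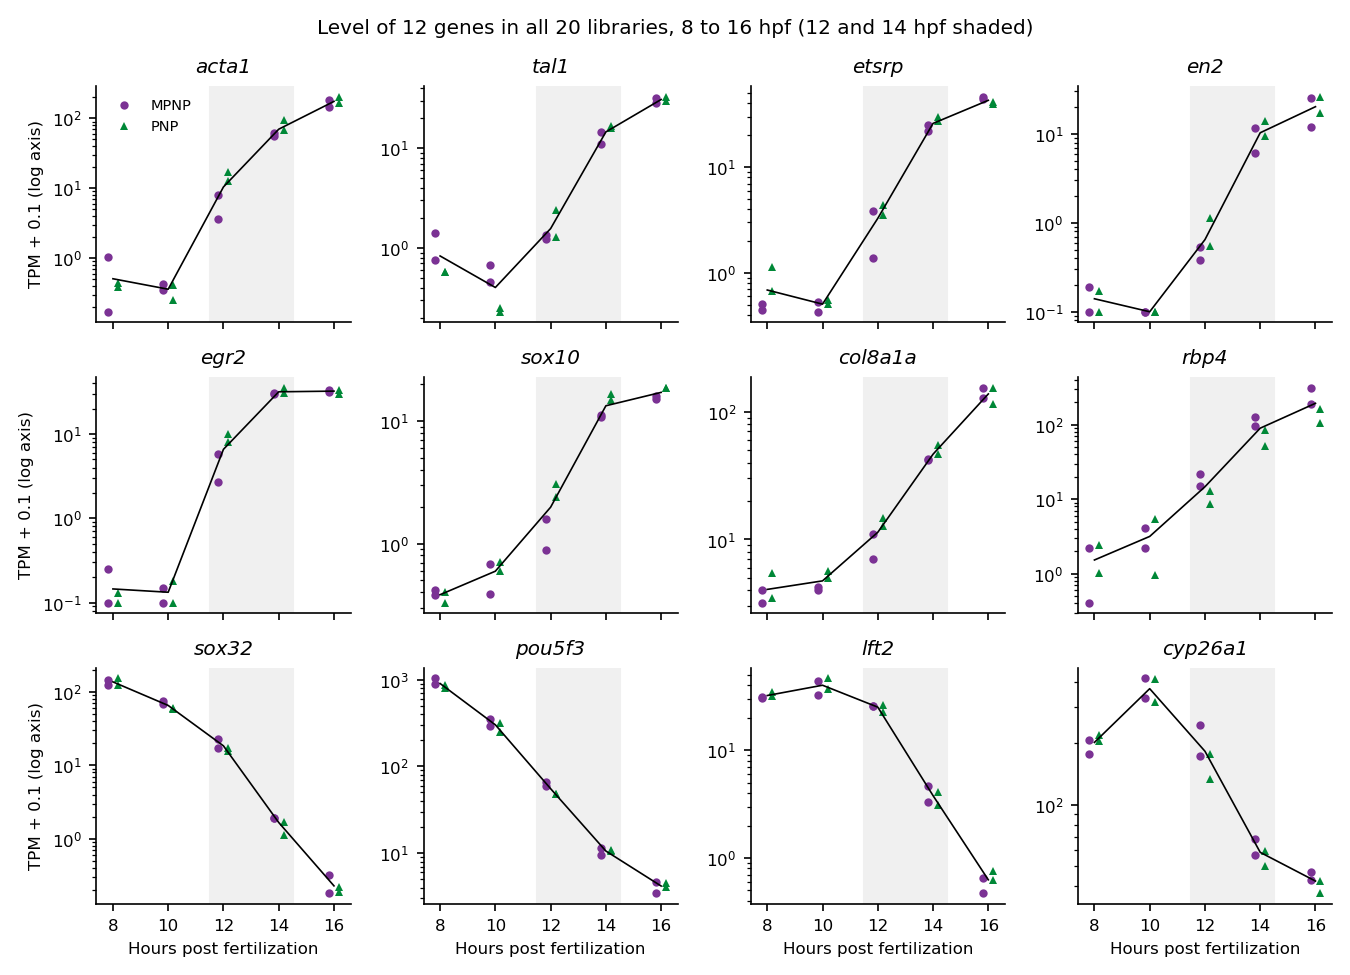
Level of 12 genes at 8, 10, 12, 14 and 16 hpf (horizontal axis), with 1 point per library on a log axis of TPM + 0.1 and a line through the stage means, MPNP and PNP libraries marked apart. Genes such as en2 (ENSDARG00000038868) and acta1 (ENSDARG00000036371) lie near 0 at 8 and 10 hpf and reach 20.1 and 175 TPM on average at 16 hpf, while sox32 and pou5f3 fall from 138 and 902 TPM at 8 hpf to 0.128 and 4.08 TPM.

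Gene lists are described below by their counts of called members and by the median change of all tested members. In the main fit these are to be read against 24.7% higher, 20.8% lower and a median of 0.02 over all genes. List counts from other fits are to be read against the counts of those fits over all 14540 genes. Without the replicate number 1777 rose and 1127 fell. Libraries numbered 1 alone gave 1344 and 1182, and those numbered 2 alone 1574 and 1225. MPNP libraries alone gave 2401 and 1837, PNP libraries alone 1754 and 1690, and libraries centred on their median 2859 and 4113. Fits to 1 number or 1 pool rest on fewer libraries and left fewer residual degrees of freedom than the main fit. Lists share members, so a gene can count in several. With each library centred on its median, the medians of all lists were lower, and those of neural plate, signalling target, epidermis and stress genes lay below 0, at -0.04, -0.04, -0.02 and -0.07.

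**Figure D3:**
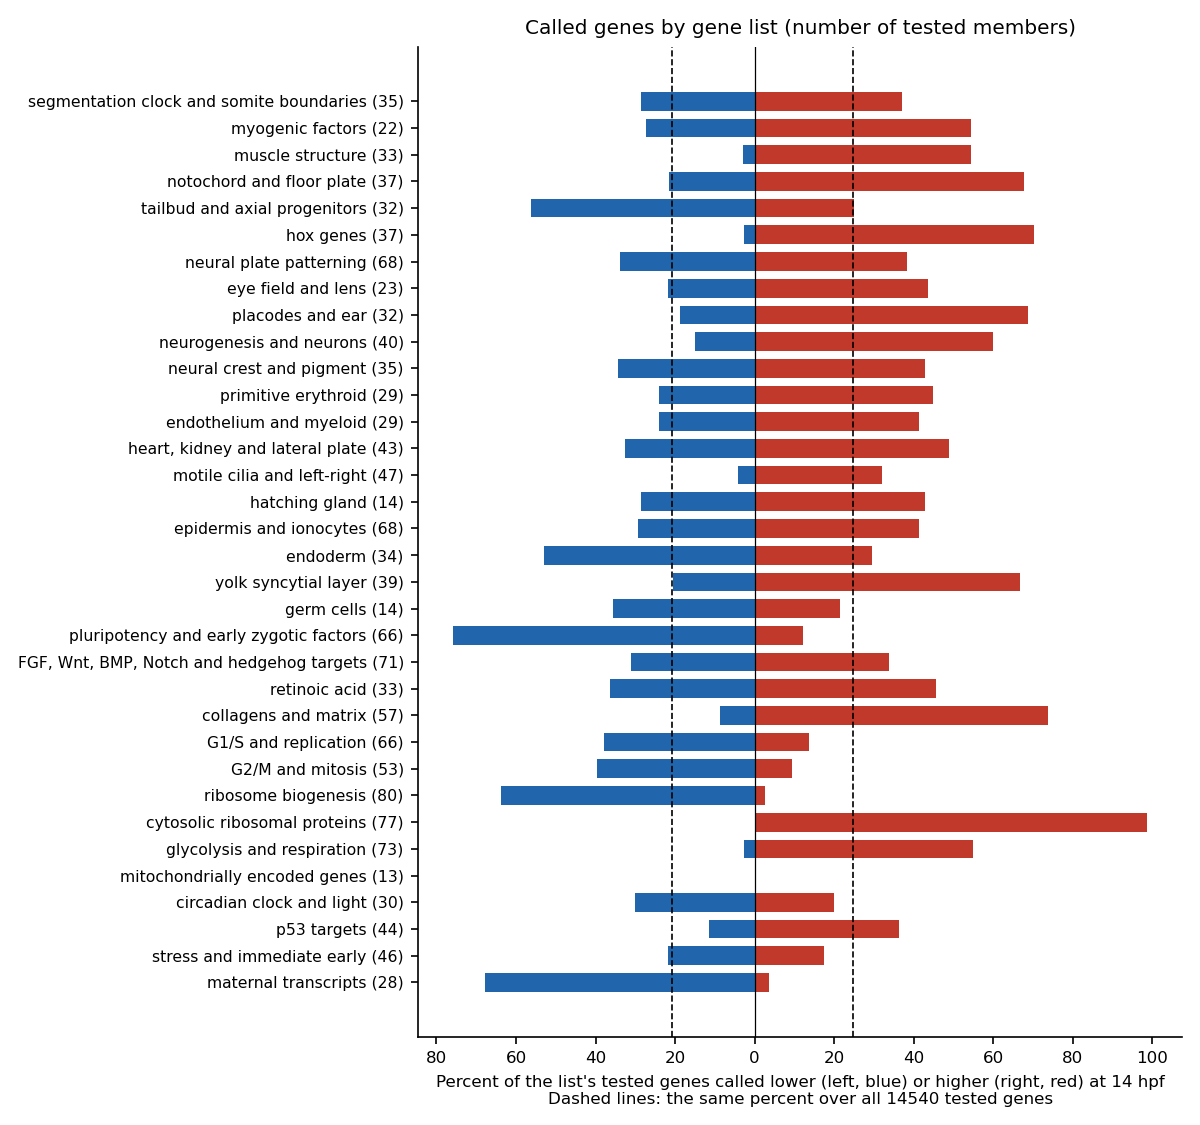
Share of the tested members of each of 34 gene lists that rose (right) and fell (left) from 12 to 14 hpf, in percent, with the shares of all 14540 genes as dashed lines at 24.7% and 20.8%. Ribosomal protein genes (98.7%), collagen and matrix genes (73.7%) and hox genes (70.3%) have the largest shares that rose, and the lists of pluripotency factors (75.8%), maternal transcripts (67.9%) and ribosome biogenesis (63.8%) the largest that fell.

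The muscle structure list had 33 tested members, of which 18 rose, 13 of them by at least 1, and 1 fell (acta2†‡, -0.36). The median change was 0.55. Without the replicate number 14 rose and 0 fell. Besides acta1 and smyhc1, the alpha-tropomyosin gene tpma†‡, the cardiac-type actin gene actc1b†‡, the myosin light chain gene myl10† and the chaperone gene hsp90aa1.1, whose product folds muscle myosin, rose by 2.21, 2.01, 1.54 and 2.02. The level of hsp90aa1.1 was 23.5, 19, 32 and 37 TPM at 12 hpf and 92.6, 109, 118 and 135 TPM at 14 hpf, and every library at 14 hpf was above every library at 12 hpf. Of 22 tested regulators of muscle fate, 12 rose and 6 fell (median 0.36). 10 rose and 3 fell without the replicate number. The terminal differentiation factor gene myog was at 0.17, 0.1, 0.29 and 0.27 TPM at 12 hpf and 3.84, 1.5, 4.75 and 2.49 TPM at 14 hpf. The gene rose by 1.71 ± 0.18 (limma adjusted p = 0.0002). Every 14 hpf library was above every 12 hpf library, which its choice by a small p favours. The largest rise of that list was that of mef2c (ENSDARG00000029764) at 2.27, which in 3 of 4 libraries at 12 hpf was under 0.25 TPM and in the fourth at 2 TPM. The determination factors myod1†‡ (0.54 ± 0.08) and myf5†‡ (0.25 ± 0.05) rose less. prdm1, which specifies slow muscle among other fates, fell from 58 ± 3.2 to 37.6 ± 4 TPM.

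Several of these genes also differed with the replicate number. The level of tpma was 2.04 and 5.33 TPM in the 12 hpf libraries numbered 1 and 24.2 and 32.8 TPM in those numbered 2. At 14 hpf it was 26.7 and 40.5 against 99.3 and 64.6 TPM, so the stages overlapped across numbers and not within one. actc1b was likewise at 2.03 and 3.1 against 13.4 and 24.7 TPM at 12 hpf and at 13.7 and 28.3 against 64.2 and 41.8 TPM at 14 hpf. Neither was called without the replicate number (limma adjusted p = 0.088 for tpma and 0.096 for actc1b). In the 12 and 14 hpf libraries numbered 1, the summed level of the 6 fast muscle genes above was at most 2.23 TPM. Within these libraries alone the change was 2.61 for acta1, 2.44 for smyhc1, 2.95 for tpma, 2.56 for actc1b, 1.54 for myl10 and 2.10 for myog. Within those numbered 2 it was 2.97, 2.71, 1.47, 1.46, 1.55 and 1.32, all called in both. The muscle list had 15 members that rose and 1 that fell in the libraries numbered 1 and 17 and 0 in those numbered 2. What sets the libraries numbered 2 apart, and whether all their muscle and lens transcripts come from embryos of the labelled stage, was not tested.

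Of 37 tested notochord and floor plate genes, 25 rose, 13 by at least 1, and 8 fell (median 0.46). Those with the largest rises include genes for matrix of the notochord sheath and of cartilage. The collagen gene col2a1 (ENSDARG00000069093) was at 2.33, 1.83, 3.86 and 4.15 TPM at 12 hpf and 14.4, 17.7, 16.7 and 19.2 TPM at 14 hpf and rose by 2.19 ± 0.14 (limma adjusted p = 1.8e-05). col8a1a rose from 11.3 ± 3.2 to 46.4 ± 5.9 TPM (1.98 ± 0.11), col9a3 by 1.54, col9a2† by 1.28 and col9a1b† by 1.21, and the cross-linking enzyme gene loxl5b by 1.29. Among those that fell were early regulators: noto†, needed for notochord fate, went from 58.9 ± 5.6 to 38.1 ± 1.3 TPM. The Brachyury gene tbxta† fell from 90.7 ± 7.6 to 69.5 ± 4.4 TPM, and foxa2 from 44.2 ± 5.2 to 26.1 ± 3 TPM. The BMP antagonist gene chrd was at 107, 114, 118 and 123 TPM at 12 hpf and 62.8, 70.1, 58.5 and 65.9 TPM at 14 hpf, and its stages did not overlap (-0.84 ± 0.05).

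The wider list of collagens and matrix genes had 57 tested members, of which 42 rose (73.7%) and 5 fell (median 0.67). 35 rose and 2 fell without the replicate number. By at least 1, 20 rose and 0 fell, where 3.07% of all genes rose that far. Fibrillar col5a2 was at 0.57, 0.39, 0.71 and 0.52 TPM at 12 hpf and 3.98, 3.71, 6.03 and 5.61 TPM at 14 hpf, so every 14 hpf library was above every 12 hpf library (1.90 ± 0.12, limma adjusted p = 1.8e-05). Basement membrane col4a1† and col4a2† rose by 1.48 and 1.18, the laminin gene lama5† from 4.46 ± 0.96 to 12.2 ± 0.93 TPM, the matrix metalloproteinase gene mmp2† from 2.14 ± 0.45 to 7.79 ± 1.9 TPM. Further rises were those of col18a1a† and col15a1b†, by 1.34 and 1.39. The best expressed members that did not pass the test were nid2 (nidogen), at 262 ± 39 and 267 ± 25 TPM, and lamb1 (ENSDARG00000101209) (a laminin), at 139 ± 10 and 141 ± 14 TPM. The fibronectin symbol fn1 covers 2 genes, of which ENSDARG00000019815†‡ fell from 92.6 ± 9.8 to 68.7 ± 14 TPM and ENSDARG00000006526† rose from 31.9 ± 6.2 to 50.4 ± 7.2 TPM.

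**Figure D4:**
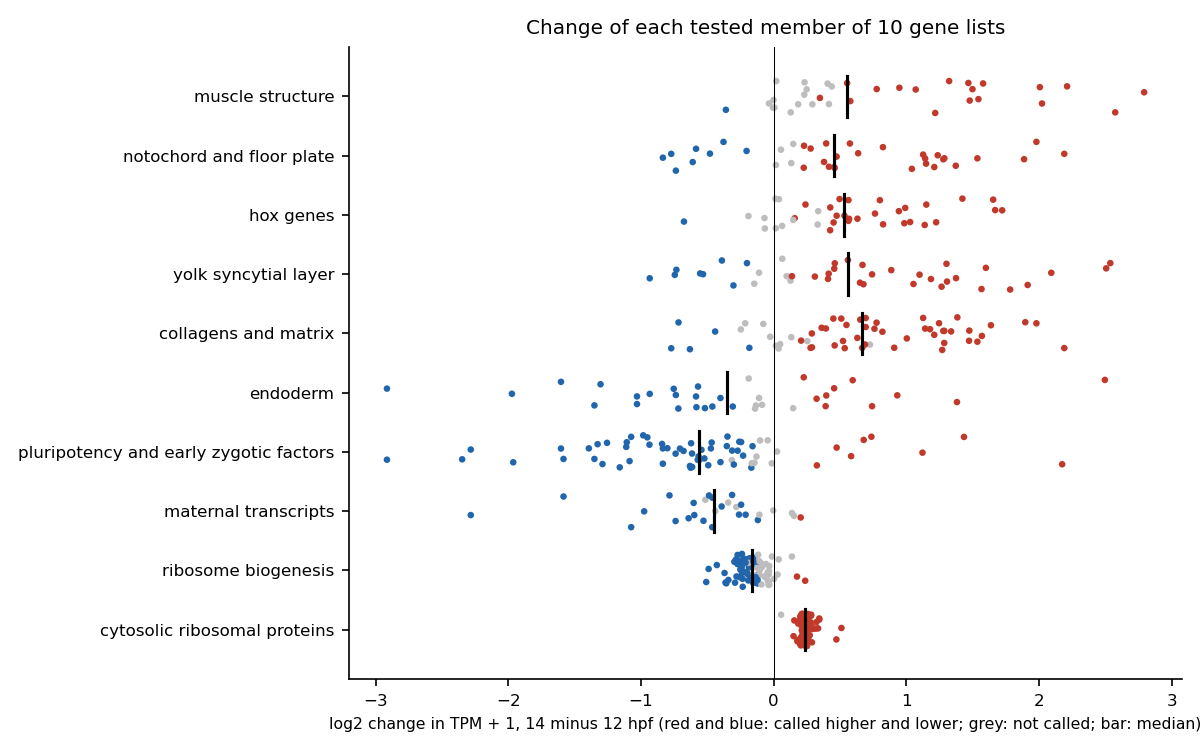
Change from 12 to 14 hpf (log2 scale, horizontal axis) of every tested member of 10 gene lists, with 1 point per gene coloured where called and a bar at the list median. Most collagen and hox genes lie right of 0 (medians 0.67 and 0.53), most pluripotency factors left of it (-0.56), and the ribosomal protein genes in a narrow band (median 0.23).

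Genes of somite formation moved in both directions: of 35 tested, 13 rose and 10 fell (median 0.15). The clock repressor genes her1† and her7† fell by 0.29 and 0.33. msgn1, a factor of presomitic mesoderm, was at 257, 241, 274 and 248 TPM at 12 hpf and 174, 154, 195 and 176 TPM at 14 hpf (-0.55 ± 0.04, limma adjusted p = 2.3e-05). No 14 hpf library of msgn1 reached the lowest 12 hpf library. Of genes expressed in formed somites, meox1† rose from 38.9 ± 9.3 to 74.3 ± 8.9 TPM, uncx† (ENSDARG00000037760), which marks the posterior half-somite, by 1.29, and tcf15 (paraxis) by 0.69. tbx6, needed for somite segmentation, was at 69.5 ± 13 and 67.6 ± 7 TPM and did not pass the test.

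The tailbud list had 32 tested members, of which 18 fell (56.2%) and 8 rose (median -0.34). cyp26a1, whose enzyme removes retinoic acid in the tailbud, was at 173, 247, 134 and 178 TPM at 12 hpf and 56.9, 68, 50 and 59.2 TPM at 14 hpf (-1.60 ± 0.06, limma adjusted p = 4.5e-06). sp5l, a Wnt target, fell from 166 ± 23 to 62.3 ± 2.5 TPM, cdx1a from 91.7 ± 7 to 47.8 ± 4.4 TPM, and the ventral homeobox genes ved and vox by 0.84 and 0.71. For all of these each 14 hpf library was below each 12 hpf library. fgf8 (ENSDARG00000003399), a ligand of the tailbud and midbrain-hindbrain boundary, was at 58 ± 3.7 and 55.7 ± 4.7 TPM and did not pass the test. 3 rose and 15 fell without the replicate number.

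Hox genes give cells their position along the body axis: of 37 tested, 26 rose (70.3%), 8 of them by at least 1, and 1 fell (median 0.53). The gene that fell was hoxb1b, expressed from gastrulation, at 145, 187, 143 and 167 TPM at 12 hpf and 90.3, 105, 93.1 and 109 TPM at 14 hpf (-0.68 ± 0.05, limma adjusted p = 2.4e-05), without overlap of the stages. Among the genes that rose most were posterior ones: hoxa10b at 1.48, 1.19, 2.01 and 2.89 TPM at 12 hpf and 4.99, 9.6, 8.7 and 11.3 TPM at 14 hpf (1.72 ± 0.15), hoxd11† (1.67), hoxd12 (1.66) and hoxa11† (ENSDARG00000007009, 1.15). Of groups expressed in the hindbrain, hoxa3 rose from 13.9 ± 4.1 to 37.8 ± 4.9 TPM and hoxd3 from 7.85 ± 1.1 to 14.7 ± 1.9 TPM. The best expressed members that did not pass the test were hoxc8 and hoxc6 (ENSDARG00000101954), at 41 and 28.9 TPM on average at 14 hpf.

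In the neural plate list 26 of 68 tested genes rose, 12 by at least 1, and 23 fell, 3 by at least 1 (median 0.03). Among those that fell were early regional markers. The forebrain and midbrain genes otx2a and otx2† fell from 69.4 ± 8.3 to 36 ± 2.8 TPM and from 82.2 ± 5.4 to 52.8 ± 6.2 TPM, and irx7 from 284 ± 7.5 to 144 ± 13 TPM. Others were gbx1 by 1.45 and fezf2†, of the anterior forebrain, by 0.81. Among those that rose besides en2 was the hindbrain segment gene egr2† (krox20), at 5.63, 2.58, 7.85 and 9.88 TPM at 12 hpf and 29.9, 30.5, 30.5 and 35.5 TPM at 14 hpf (2.23 ± 0.23, limma adjusted p = 0.00019), without overlap of the stages. mafb†, of the posterior hindbrain segments, rose by 1.80, and pax5† by 1.30.

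For the eye, 10 of 23 tested genes rose, 7 by at least 1, and 5 fell. The median was 0.38. 8 rose and 1 fell without the replicate number. Within the libraries numbered 1 alone 8 rose and 3 fell (median 0.21), and within those numbered 2 alone also 8 and 3 (median 0.68). The median was 0.65 in MPNP and 0.28 in PNP libraries alone. The eye field gene rx3†‡ fell from 122 ± 23 to 82 ± 16 TPM, while rx2 rose as given above. mab21l2, needed for eye growth, was at 5.11, 2.23, 9.23 and 10.4 TPM at 12 hpf and 23.9, 32.2, 31.5 and 44 TPM at 14 hpf. The homeobox gene lhx9 was at 1, 0.37, 1.22 and 1.69 TPM at 12 hpf and 5.57, 6.7, 8.31 and 10.1 TPM at 14 hpf. For both the stages did not overlap, which the rule that picked mab21l2 required. The 4 crystallin genes that differed with the replicate number were among the 8 not called. Of 32 tested genes of placodes and ear, 22 rose (68.8%) and 6 fell (median 0.66). 20 rose and 3 fell without the replicate number. sox9 (ENSDARG00000043923), of ear, cartilage and crest, rose from 8.78 ± 2.7 to 34.3 ± 4.1 TPM, tbx2 (ENSDARG00000006120) by 1.60 and the claudin gene cldna by 1.55. foxi1†, which makes ectoderm competent for placodes, fell from 67.4 ± 16 to 32 ± 13 TPM, and stm (starmaker, an otolith protein gene) from 237 ± 56 to 110 ± 27 TPM. The level of stm was highest at 8 hpf, at 867 TPM on average, and was 522 TPM at 10 hpf.

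Of 40 tested genes of neuronal differentiation, 24 rose (60%) and 6 fell (median 0.42). 18 rose and 4 fell without the replicate number. elavl3† (HuC), an RNA-binding protein gene of new neurons, was at 5.64, 3.44, 6.89 and 8.28 TPM at 12 hpf and 18.5, 22.8, 17.1 and 23.2 TPM at 14 hpf and rose by 1.64 ± 0.19 (limma adjusted p = 0.00034), without overlap. neurod1† rose from 0.217 ± 0.13 to 2.17 ± 0.36 TPM, the motor and sensory neuron genes isl1† and isl2† (ENSDARG00000003971) by 0.82 and 0.85, and the tubulin genes tuba1a and tuba1c by 0.74 and 0.87. The proneural gene neurog1 was at 37.4 ± 6.2 and 37.8 ± 3.2 TPM and did not pass the test, and prdm14 fell by 1.58 and phox2a by 1.40. In the neural crest list 15 of 35 tested rose and 12 fell (median 0.19). 11 rose and 7 fell without the replicate number. sox10, of migrating crest, was at 1.49, 0.78, 2.94 and 2.32 TPM at 12 hpf and 11.1, 10.7, 14.7 and 16.5 TPM at 14 hpf (2.35 ± 0.12, limma adjusted p = 9.2e-06). snai2† rose by 1.45, twist1b† by 1.56 and foxd3† by 0.68, while twist1a fell by 0.73 and the neural plate border gene zic2 (ENSDARG00000015554) by 1.09.

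Blood and vessel genes were led by tal1 and etsrp. tal1 was at 1.25, 1.13, 1.2 and 2.28 TPM at 12 hpf and 10.8, 14.4, 15.8 and 16.7 TPM at 14 hpf. For etsrp the values were 3.73, 1.28, 3.45 and 4.28 TPM at 12 hpf and 21.9, 24.7, 27.2 and 29.5 TPM at 14 hpf. The 12 hpf libraries were all below 5 TPM and the 14 hpf libraries all above 10 TPM. The rule that picked both genes required that their stages did not overlap. Of 29 tested genes of primitive red cells, 13 rose, 3 by at least 1, and 7 fell (median 0.17). 6 rose and 6 fell without the replicate number. gfi1aa rose from 0.172 ± 0.13 to 5.67 ± 1.9 TPM and lmo2†, a partner of Tal1, by 0.73. gata2 fell from 108 ± 4.1 to 70.2 ± 4.9 TPM and blf by 1.11. Of 29 tested endothelial and myeloid genes, 12 rose, 6 by at least 1, and 7 fell (median 0.16). fli1†, an ETS factor of endothelium, rose from 3.68 ± 1.5 to 12.3 ± 0.95 TPM, dusp5 by 1.84, egfl7† by 1.13 and the VEGF receptor gene kdr†‡ by 0.52. lcp1, an actin bundling protein gene known from leukocytes, fell by 1.10. It was already at 331 TPM on average at 8 hpf and 208 TPM at 10 hpf, and at 110 TPM at 12 hpf.

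Heart, kidney and lateral plate genes were mixed, with 21 of 43 tested rising, 9 by at least 1, and 14 falling (median 0.25). 19 rose and 9 fell without the replicate number. hand2†, needed for heart precursors, was at 8.36, 10, 8.9 and 14.8 TPM at 12 hpf and 14.9, 26, 16 and 26.3 TPM at 14 hpf (0.91 ± 0.10, limma adjusted p = 0.00026). tbx20† and wt1†, of heart and of podocytes, rose by 0.91 and 1.06. The early mesendoderm factor gene gata6 fell from 126 ± 14 to 74.4 ± 7.3 TPM and gata5†‡ by 0.31. Among 47 tested genes of motile cilia and left-right asymmetry, 15 rose and 2 fell (median 0.17). dand5, the Nodal antagonist of Kupffer's vesicle, rose from 1.68 ± 0.75 to 7.37 ± 1.8 TPM, and the ciliogenesis factor genes foxj1b and foxj1 by 1.11 and 0.74. 6 rose and 0 fell without the replicate number.

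The hatching gland, which secretes enzymes that dissolve the egg envelope, had 14 tested genes, with 6 rising and 4 falling (median 0.14). The enzyme genes rose: he1.1 was at 61.3, 31.7, 85 and 76.8 TPM at 12 hpf and 188, 199, 306 and 257 TPM at 14 hpf (1.94 ± 0.15, limma adjusted p = 3.8e-05). A second, he1.2, rose by 2.12, with ctslb†, a cathepsin gene of the gland, by 1.11. The prechordal plate regulator gene gsc fell from 30.6 ± 6.7 to 11.8 ± 2 TPM. In epidermis 28 of 68 tested genes rose and 20 fell (median 0.05), most by less than 1. 15 rose and 9 fell without the replicate number. The claudin gene cldni was at 24.4, 22.5, 21.5 and 35.3 TPM at 12 hpf and 102, 152, 101 and 130 TPM at 14 hpf (2.19 ± 0.13). The ionocyte factor genes foxi3b† and gcm2† rose by 1.73 and 1.58. anxa1† (annexin) fell from 928 ± 170 to 506 ± 53 TPM, klf2b by 1.26 and the ligand gene bmp2 (ENSDARG00000041430) by 0.80.

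The yolk syncytial layer list had 39 tested genes, of which 26 rose, 14 by at least 1, and 8 fell, 0 by at least 1 (median 0.56). 21 rose and 5 fell without the replicate number. Genes for carriers of lipid and retinol went both ways. rbp4 was at 21.8, 15, 12.9 and 8.62 TPM at 12 hpf and 126, 96.9, 85.4 and 51 TPM at 14 hpf and rose by 2.54 ± 0.06 (limma adjusted p = 1.2e-06). apom rose from 2.13 ± 0.82 to 17.2 ± 7.3 TPM, apoa4b.1† from 69.2 ± 12 to 205 ± 7.5 TPM, and apoa2† from 737 ± 172 to 1795 ± 254 TPM. The 3 fibrinogen genes fga†, fgb and fgg† rose by 1.91, 2.09 and 1.78. The apolipoprotein gene apoeb†‡ fell from 5898 ± 291 to 5127 ± 179 TPM, and apoc2 was at 255 ± 29 and 237 ± 38 TPM and did not pass the test. The lipid loading protein gene mttp‡ fell from 255 ± 85 to 150 ± 43 TPM, hnf4a† by 0.93 and the cathepsin gene ctsla by 0.55. The abundant afp4 (ENSDARG00000095863) was at 6071 ± 1126 and 6326 ± 964 TPM and did not pass the test.

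Among pluripotency and early zygotic factors 50 of 66 tested fell (75.8%), 16 by at least 1, and 8 rose, 3 by at least 1; the median was -0.56. pou5f3 was at 59.5, 65.2, 48.2 and 47.9 TPM at 12 hpf and 11.3, 9.31, 10.6 and 10.7 TPM at 14 hpf (limma adjusted p = 4.7e-06). Its stages did not overlap, as the rule that picked it required. nanog† fell from 4.85 ± 1.2 to 1.77 ± 0.53 TPM, the Nodal co-receptor gene tdgf1 (oep) from 62 ± 18 to 19.5 ± 1.3 TPM, the Nodal ligand gene ndr2† by 1.35, klf2a by 1.96 and foxd5 by 1.16. The SoxB1 genes moved less: sox2†‡ fell by 0.27 and sox3 was at 140 ± 3.9 and 142 ± 12 TPM and did not pass the test. The 3 members that rose by at least 1 were wnt11† (2.17), myc† (ENSDARG00000045695, 1.44) and nr6a1† (ENSDARG00000014480, 1.12). At 8 hpf these 3 were at only 0.223, 0.255 and 0.312 TPM on average. Of the other genes under these symbols, nr6a1† (ENSDARG00000101508) fell from 555 ± 13 to 396 ± 49 TPM. The other myc† gene (ENSDARG00000007241) was at 34.3 ± 9.4 and 47.8 ± 11 TPM. The Wnt ligand gene wnt11 was at 6.43, 3.28, 9.37 and 8.62 TPM at 12 hpf and 28.9, 33, 34.8 and 35.1 TPM at 14 hpf. The gene with the related symbol wnt11f2† went the other way, at 33.1 ± 4.2 and 22.1 ± 3.1 TPM. It was at 62.3 TPM on average at 8 hpf.

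Maternal transcripts fell in 19 of 28 tested genes (67.9%), 3 by at least 1, and 1 rose (median -0.45). The egg envelope genes zp3b and zp2.2 fell from 11.5 ± 1.3 to 6.5 ± 0.77 TPM and from 55.3 ± 10 to 37.9 ± 6.3 TPM, the nucleoplasmin gene npm2b by 0.60 and the egg gene org† by 0.98. 0 rose and 10 fell without the replicate number. The endoderm list had 34 tested genes, 18 of which fell (52.9%), 7 by at least 1, and 10 rose (median -0.35). sox17, the target of Sox32, was at 9.31, 14.8, 10 and 12.7 TPM at 12 hpf and 2.3, 3.55, 1.85 and 1.42 TPM at 14 hpf. Its stages did not overlap, as the rule that picked it required. cxcr4 (ENSDARG00000057633), a chemokine receptor gene of endoderm and other migrating cells, fell from 95.4 ± 5.1 to 46.5 ± 7.1 TPM. Of 14 tested germ cell genes, 5 fell and 3 rose (median -0.24). 1 rose and 3 fell without the replicate number. ddx4 (vasa) fell from 8.77 ± 1.2 to 5.04 ± 0.47 TPM. nanos3 was at 6.75 ± 2 and 6.11 ± 2.2 TPM and did not pass the test.

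Targets of FGF, Wnt, BMP, Notch and hedgehog signals moved both ways, with 24 of 71 tested rising and 22 falling (median 0.03). 17 rose and 11 fell without the replicate number. Besides sp5l, the Wnt antagonist gene sfrp1 (ENSDARG00000035521) fell from 139 ± 41 to 55.2 ± 13 TPM and the BMP target bambi (ENSDARG00000055381) from 251 ± 28 to 140 ± 15 TPM, while the related gene sfrp5 rose from 5.19 ± 1.5 to 14.2 ± 3.6 TPM. In the retinoic acid list 15 of 33 tested rose, 7 by at least 1, and 12 fell, 5 by at least 1 (median 0.08). 13 rose and 7 fell without the replicate number. Of the enzymes that make retinoic acid, aldh1a2 was at 42.6, 46, 45.5 and 46.3 TPM at 12 hpf and 15.6, 16.3, 19.4 and 19.6 TPM at 14 hpf (-1.31 ± 0.06, limma adjusted p = 5.5e-06). rdh10† (ENSDARG00000058730) fell from 69.3 ± 5.8 to 27.3 ± 3.7 TPM. Of those that remove it, cyp26a1 fell by 1.60, while cyp26b1†‡ rose by 0.87 and cyp26c1† by 0.56, the last not called without the first MPNP library at 14 hpf (limma adjusted p = 0.055). The nuclear receptor gene nr2f2† rose from 3.65 ± 1.1 to 13.4 ± 2 TPM.

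Of 77 tested genes for cytosolic ribosomal proteins, 76 rose, by 0.15 to 0.51, and 1, rpl38 at 647 ± 105 and 673 ± 110 TPM, did not pass the test. The median change was 0.23. rps2 was at 5600, 5213, 5580 and 5192 TPM at 12 hpf and 6645, 6793, 6981 and 6963 TPM at 14 hpf, and all 14 hpf libraries exceeded all 12 hpf libraries (0.34 ± 0.03, limma adjusted p = 0.00013). Libraries numbered 1 were higher in many of these genes than those numbered 2, as for rplp0‡ at 4570, 3081, 4535 and 3219 TPM at 12 hpf and 5489, 4084, 5673 and 4195 TPM at 14 hpf. Only 5 of the 77 were called without the replicate number, all higher, in a fit where 1777 of all 14540 genes rose. Within the libraries numbered 1 alone 43 rose, and within those numbered 2 alone 75, with medians of 0.20 and 0.28. Centred on the median of each library 71 rose (median 0.16).

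Genes for the assembly of ribosomes went the other way, with 51 of 80 tested falling (63.8%) and 2 rising, 0 by at least 1 in either direction (median -0.17). The nucleolar protein genes ncl and npm1a fell from 2189 ± 200 to 1628 ± 157 TPM and from 1830 ± 126 to 1415 ± 93 TPM. ncl was at 2186, 2470, 2020 and 2080 TPM at 12 hpf and 1726, 1794, 1473 and 1518 TPM at 14 hpf, so the stages did not overlap. 0 rose and 9 of the 80 fell without the replicate number, in a fit where 1127 of all 14540 genes fell.

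Of 66 tested G1/S and replication genes, 25 fell and 9 rose (median -0.09), and of 53 G2/M and mitosis genes 21 fell and 5 rose (median -0.12). The licensing factor genes cdt1 and cdc6 fell from 86 ± 5.9 to 54.3 ± 3.5 TPM and from 90.9 ± 2.9 to 58.8 ± 5.4 TPM, the cyclin gene ccne2 by 0.68, and the mitotic genes prc1 (ENSDARG00000100918) and ccna2 by 0.45 and 0.29. Of the mitotic kinase and cyclin genes, plk1 was at 200 ± 14 and 200 ± 4.2 TPM and ccnb1 at 289 ± 58 and 274 ± 69 TPM, and neither passed the test. In the fit without the replicate number 6 of the 66 and 5 of the 53 fell and 0 rose. In that fit 1127 of all 14540 genes fell and 1777 rose.

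Of 73 tested genes of glycolysis and respiration, 40 rose (54.8%) and 2 fell (median 0.19). tpi1 (ENSDARG00000040988), a glycolytic enzyme gene, was at 33.1 ± 5.8 and 52.3 ± 6.6 TPM and ndufv1, of complex I, at 52.4 ± 0.36 and 69.3 ± 2.9 TPM. 16 rose and 0 fell without the replicate number, and 30 rose and 5 fell with libraries centred on the median. None of the 13 mitochondrially encoded genes was called by limma, but 2 were lower when libraries were centred. mt-co1 was at 3386 ± 869 and 2886 ± 650 TPM (-0.22 ± 0.08, limma adjusted p = 0.059) and was called lower without the first MPNP library at 14 hpf (0.012) and without the first PNP library at 12 hpf (0.045).

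Circadian clock and light-responsive genes had 6 that rose and 9 that fell of 30 tested (median -0.08). bmal1 (ENSDARG00000035732) rose from 2.78 ± 0.69 to 5.56 ± 0.41 TPM, while clock (ENSDARG00000011703) fell from 2.23 ± 0.38 to 1.08 ± 0.19 TPM and nfil3-5 by 0.56. 1 rose and 4 fell without the replicate number. Among 46 stress and immediate early genes 8 rose and 10 fell (median 0.00), against 24.7% and 20.8% of all genes. hspb1, a small heat shock protein gene, was at 7588, 5952, 7246 and 5427 TPM at 12 hpf and 4836, 3620, 4431 and 3486 TPM at 14 hpf (-0.68 ± 0.03, limma adjusted p = 4.4e-06). hspa5, the chaperone of the endoplasmic reticulum, rose by 0.40. The 2 genes under the symbol gadd45b, ENSDARG00000013576 and ENSDARG00000027744, fell by 0.79 and 0.53. Of the list, 3 rose and 5 fell without the replicate number.

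Of 44 tested p53 targets, 16 rose (36.4%), 5 fell and 0 moved by at least 1 (median 0.20). Centred on the median 12 rose and 8 fell (2859 and 4113 of all genes), and without the replicate number 2 rose and 0 fell (1777 and 1127 of all genes). In MPNP libraries alone 18 rose and 2 fell (median 0.32), and in PNP libraries alone 3 rose and 6 fell (median 0.09). Of all 14540 genes, 2401 rose and 1837 fell in MPNP libraries alone (median 0.04). In PNP libraries alone 1754 rose and 1690 fell (median 0.00). mdm2‡ was at 111, 151, 63.5 and 76.7 TPM at 12 hpf and 187, 286, 86.2 and 85.8 TPM at 14 hpf and rose by 0.56 ± 0.13 (limma adjusted p = 0.0074). MPNP libraries were above PNP libraries at both stages. The change was 0.83 in MPNP and 0.30 in PNP libraries, and in the latter alone it was not called (limma adjusted p = 0.056). Of the engineered loci, bbc3 was at 7.91 ± 5.8 and 7.11 ± 6.8 TPM, pmaip1 at 7.6 ± 4.8 and 8.19 ± 6.3 TPM and cdkn1a at 6.02 ± 3.6 and 6.46 ± 3.9 TPM, and none of the 3 passed the test. For bbc3 and cdkn1a the MPNP libraries were above the PNP libraries at both stages. At 14 hpf bbc3 was at 8.57 and 16.2 against 1.78 and 1.93 TPM, and cdkn1a at 10.2 and 9.39 against 3.72 and 2.57 TPM. For pmaip1 the pools overlapped across the replicate numbers and not within one. MPNP and PNP libraries numbered 1 were at 4.34 and 3.56 TPM at 12 hpf and 6.21 and 2.68 TPM at 14 hpf. Those numbered 2 were at 14.1 and 8.36 TPM and at 17.3 and 6.57 TPM. The change of bbc3 was 0.01 in MPNP and -0.68 in PNP libraries. Transcripts of the mutant alleles count in these values. Of the other genes in the study's title, ccng1, a cyclin, was at 703, 968, 335 and 443 TPM at 12 hpf and 849, 1207, 408 and 420 TPM at 14 hpf (0.20 ± 0.08, limma adjusted p = 0.064). foxo3b, a transcription factor, was at 21.8, 36.2, 4.84 and 7.34 TPM at 12 hpf and 42.5, 72.7, 5.79 and 6.63 TPM at 14 hpf (0.50 ± 0.19, limma adjusted p = 0.057). Both were called higher without the second PNP library at 14 hpf (limma adjusted p = 0.00079 and 0.0062), and foxo3b also without the first at 12 hpf (0.044). fbxw7, a ubiquitin ligase receptor, changed by -0.16 ± 0.09 (limma adjusted p = 0.17) and was called lower without the second MPNP library at 14 hpf (0.042), as was bbc3 (0.047).

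The changes over these hours were also taken within each kind of pool. Of the 642 genes called with a change of at least 1, all 642 moved the same way in both pools, which the choice of called genes favours, and 449 by at least 1 in both. The median size of change was 1.33 in MPNP and 1.25 in PNP libraries. Across all 14540 genes the changes in the 2 pools, which share no library, correlated at Pearson's r = 0.795, a description across genes that are not independent. No gene (0 of 14540, 0%) had a stage change that differed between the pools by the limma interaction test, where 928 (6.38%) had an unadjusted p under 0.05, with 3 residual degrees of freedom. Leaving out 1 library gave between 0 and 6, the 6 without the first PNP library at 12 hpf. Among the 6 genes with the smallest p of that test was phlda2, at 10.3, 10.6, 4.09 and 4.48 TPM at 12 hpf and 33.7, 52.4, 6.09 and 4.81 TPM at 14 hpf. At 14 hpf it lay between 33.7 and 52.4 TPM in MPNP libraries and between 4.81 and 6.09 TPM in PNP libraries, with a difference of 1.63 between the changes (limma adjusted p = 0.6). Over both pools its change was 1.10 ± 0.31 (limma adjusted p = 0.021), and it was not called without either MPNP library at 12 hpf or the first at 14 hpf (0.065 to 0.076). thy1, another of the 6, rose from 11.6 ± 3.1 to 26 ± 4.5 TPM, with a change of 0.64 in MPNP and 1.59 in PNP libraries. The changes of sox4 (ENSDARG00000004588) were 0.36 in MPNP and -0.34 in PNP libraries, and those of inpp4b were 0.49 and -0.54, and the difference did not pass the test for any of these 3 genes.

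**Figure D5:**
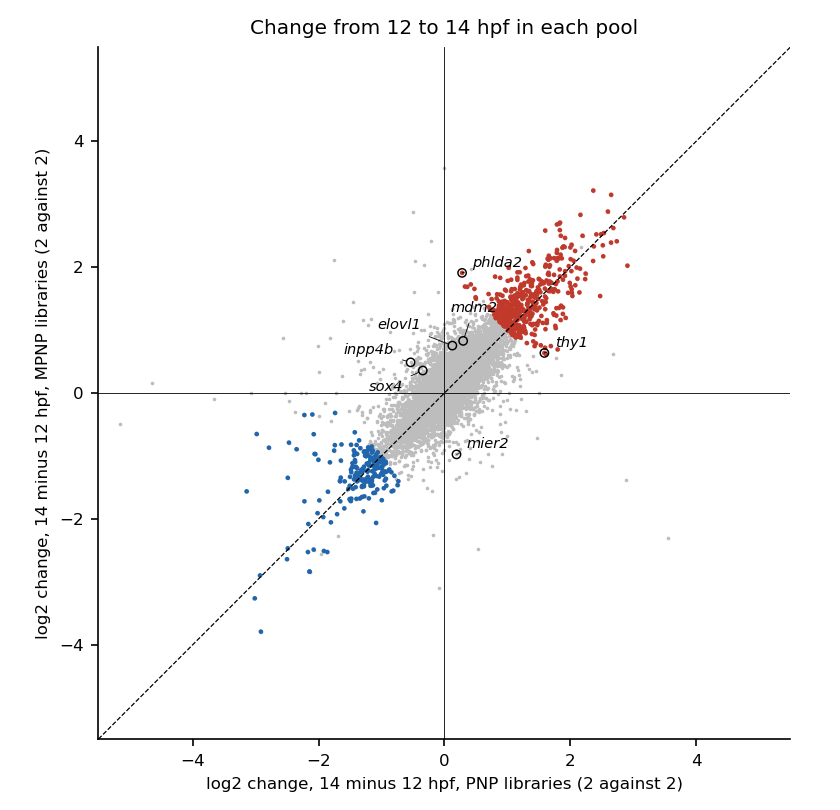
Change from 12 to 14 hpf within MPNP libraries (vertical axis) against that within PNP libraries (horizontal axis), both on the log2 scale, with 1 point per gene tested and the 642 genes called with a change of at least 1 coloured. The points lie along the diagonal (r = 0.795 across genes), with phlda2 (1.91 in MPNP and 0.28 in PNP libraries) among those off it.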

How the data were processed

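Poly(A) RNA of pooled whole zebrafish embryos was sequenced as paired reads of 150 bases, per the labels' protocols. The authors deposited 1 table of TPM values with 2 decimals for 32057 gene IDs. A separate gene name reference gave a symbol for 28988 of them. The submitters' processing notes name GRCz11 as the build and list R 4.3.3, DESeq2 1.42.1, HTSeq 0.12.3, RSEM 1.3.3 and STAR 2.7.3a. Which of these made the TPM values is not stated there. The read depth is unknown. The table's 4 columns without a name or values were not used. Symbols carry no paralog letter for many genes, so genes that share a symbol are given with their ID.

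The 8 libraries of 12 and 14 hpf were grouped by their titles. Genes with a mean of at least 1 TPM were fitted as log2(TPM + 1) with limma 3.58.1 in R 4.3.3 (trended variance, 4 residual degrees of freedom) on stage, pool and replicate number; the stage by pool interaction left 3. Fits to the libraries of a single pool or number left fewer than either. The main fit was tested on simulated data first. The labels do not say what the replicate number marks. Over the 6 pairs of groups, deviations of same-numbered libraries from their group means correlated at 0.546 to 0.621, so the number was kept as a block.

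The comparison, its genes and the 34 gene lists were chosen with earlier results of these data known. Of 2007 list entries, 1408 matched a symbol exactly, 427 after the paralog letter was dropped (a step added after the symbols were seen), 37 by a synonym and 135 not at all. Genes were named by rule: the 15 largest changes in each direction with at least 5 TPM at the higher stage, no overlap of libraries and a symbol that is not clone-derived; 8 switched on and 8 cleared; per list the 5 smallest p and the 2 best expressed members that did not pass; the 6 smallest interaction p; and mdm2, bbc3, pmaip1, cdkn1a, ccng1, foxo3b and fbxw7. A few genes that this rule names are not reported here. Other scalings, filters, pseudocounts, terms and sets of libraries were tried as alternatives.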

Additional observations from a re-analysis of the deposited data

How the results depend on the processing

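The counts of genes that rose (3589) and fell (3027) depended most on the replicate number. Without the replicate block 1777 rose and 1127 fell, and all 2904 of these were called in the same direction with it. The libraries numbered 1 alone gave 1344 and 1182, of which 2453 of 2526 were shared, and those numbered 2 alone 1574 and 1225, of which 2719 of 2799 were shared. PNP libraries alone gave 1754 and 1690, and MPNP libraries alone 1837 that fell. With a replicate block within each stage the counts were 3401 and 2836. Leaving out 1 library in turn gave 2798 to 3270 that rose and 2502 to 2747 that fell, and 0 to 6 genes for the stage by pool interaction, which was at 0 in the other settings in which it was fitted. The remaining alternatives (pseudocounts of 0.1 and 5, no filter, a mean of at least 5 TPM, no trend, no pool term, all 20 libraries, centring, and removal of the 50 most abundant genes) kept both counts within 1.5 times.

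Of the 357 named genes, 298 kept their call or lack of it without the replicate block and 59 lost it, with limma adjusted p from 0.053 to 0.5. The change of sox4 (ENSDARG00000004588), 0.01, was -0.34 in PNP libraries alone, and that of inpp4b, -0.02, was 0.49 in MPNP libraries alone; no other named gene reversed its sign with a call. The cause was not tested. TPM without depth gives no counting error for low genes.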

Other observations

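The symbols used here, which come from a gene name reference, often cover a pair of genes, and the members of such pairs did not always move together. Of 673 symbols carried by 2 tested genes, 184 had both genes called, 127 in the same direction and 57 (31%) in opposite directions. In 47 of the 57 the gene that fell had the higher level. Genes that fell also had higher levels outside such pairs. The median was 15 TPM at 12 hpf for the 196 genes that fell by at least 1. It was 6.95 TPM at 14 hpf for the 446 that rose by at least 1. In 8 of the 57 pairs with opposite directions, each gene changed by at least 0.5 on the log2 scale. Among these, the retinoic acid binding protein gene crabp2 changed by -1.33 (ENSDARG00000030449) and 0.74 (ENSDARG00000073978), and the BMP ligand gene bmp2 by -0.80 (ENSDARG00000041430) and 0.58 (ENSDARG00000013409). The pairs under gpd1 and ptger4 changed by -1.54 and 1.08 and by -1.08 and 0.57. Reads shared between near-identical copies could be split between them in the counting, and their part in these pairs was not tested.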
